A study of Mus musculus with 4 samples.

Results

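Regulatory T cells of healing mouse skin were taken as the cells with at least 1 UMI (unique molecular identifier, 1 captured mRNA molecule) of *Cd3d*, *Cd3e* or *Cd3g*, at least 1 UMI of *Foxp3*, and no UMI of *Trdc*, *Cd8a*, *Cd8b1* or *C1qa*. The members were thus chosen by their own measured UMIs of these genes. Among 6443 cells that passed limits of 200 to 3000 genes and 10% mitochondrial UMIs, 194 met this rule. There were 17 such Foxp3+ T cells in the library Control 1, 78 in Control 2, 46 in hucMSC-Exo 1 and 53 in hucMSC-Exo 2. They were compared with 245 Foxp3-negative Cd4+ T cells of the same libraries, which had a *Cd4* UMI and met the same exclusions, 29, 97, 57 and 62 cells in the same order. Values of the 4 libraries are given below in this order, Control 1, Control 2, hucMSC-Exo 1 and hucMSC-Exo 2, unless the libraries are named.

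All mice were C57/BL6j, 6 weeks old, with a full-thickness punch wound in the shoulder midline. Wound edges of the hucMSC-Exosomes group were injected every 48 hours with 100 µg of exosomes from human umbilical cord mesenchymal stem cells, and those of the control group with an equal volume of PBS. Skin around the wound was taken on day 7 for droplet single-cell RNA sequencing of the 3′ ends of transcripts, with 2 libraries in each group. By the methods of the study the libraries came from separate mice, so the tests measure the spread between mice, with 2 in each group. The deposited matrices hold fewer cells than the study counts in each library, and 81.4% to 87.1% of the kept cells had a UMI of *Ptprc*, which encodes the leukocyte antigen CD45. They thus hold a part of the skin cells that is rich in leukocytes, and how it was picked is not given in the sources used here. The labels name gut sections as the tissue and skin as the cell type, and the letters of the deposited matrices pair the libraries differently from the titles, so every direction between groups rests on the titles. Control 1 was the smallest library, with 952 kept cells against 1416 to 2074 in the other libraries.

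Regulatory T cells restrain other lymphocytes, and the transcription factor Foxp3 sets up and holds their identity. They consume interleukin 2 through the receptor chain CD25 (*Il2ra*), withdraw costimulation through CTLA-4 and release inhibitory mediators. In skin they sit around hair follicles, respond to the alarmin interleukin 33 through ST2 (*Il1rl1*), and are known to help the repair of the epidermis after wounding.

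*Foxp3* gave 46, 272, 123 and 165 UMIs in the members of the 4 libraries. As counts per 1000000 UMIs summed over the members (CPM), this was 479, 601, 539 and 681. A member held a median of 2, 3, 2 and 3 *Foxp3* UMIs, and the highest cell held 16, in Control 2. Since *Foxp3* chose the cells, these levels are a description and were not tested. At the edge of the rule, 53 members had 1 *Foxp3* UMI, 45 had 2 and 96 had 3 or more. Just outside it were 9 cells with *Foxp3* but no *Cd3* UMI and 49 *Cd3*+ *Foxp3*+ cells with a UMI of an excluded gene, of which 28 had *Trdc* and 16 had *Cd8b1*. No library showed *Foxp3* in its neutrophil-gated or macrophage-gated cells, which should lack the gene. Neutrophil-gated cells of hucMSC-Exo 2 had a *Foxp3* UMI in 0 of 467 cells, which allows a share of up to 0.642% when 3 counts are taken as the limit (exact Clopper-Pearson 95% upper bound 0.787%). In macrophage-gated cells of Control 2 it was 0 of 310, which allows up to 0.968% in the same way (upper bound 1.18%). Neutrophil-gated cells held a median of 1868 to 2232 UMIs per library and macrophage-gated cells 7105 to 8706, against 4097 to 5475 in the members. Gamma delta T cells, gated by *Trdc*, had a *Foxp3* UMI in 1.99%, 2.13%, 0.458% and 1.82% of cells and *Cd8*-gated T cells in 7.41%, 11.1%, 13.5% and 9.80%.

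*Foxp3* lies on chromosome X at 7573644 to 7595245 of mouse GRCm38, the assembly of the mm10 build. The stretch before 1 of its 2 annotated starts is shown because this gene defines the cells. It is chrX:7579426-7579675, the 250 bases before the start in RefSeq (GRCm38.p6, plus strand, 5′ to 3′), with capitals on a TATAAA element that begins 32 bases before the start.
Foxp3: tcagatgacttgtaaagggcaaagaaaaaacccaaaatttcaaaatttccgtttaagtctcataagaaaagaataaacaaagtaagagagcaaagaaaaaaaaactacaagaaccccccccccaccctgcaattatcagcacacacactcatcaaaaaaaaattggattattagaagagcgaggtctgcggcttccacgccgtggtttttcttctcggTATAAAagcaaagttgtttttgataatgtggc
TATAAA, read on the gene's strand, was present in 8.32% of 32851 promoter windows of 300 bases, from 250 before to 50 after the start. Its presence describes the sequence and was not tied to any level here.

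The label fitted *Ctla4* and *Il2ra*, markers that the rule had not used. *Ctla4*, the inhibitory receptor, had a UMI in 182 of 194 members, *Icos*, a costimulatory receptor, in 184, and *Il2ra* in 151. The shares were 93.8%, 94.8% and 77.8%, against 0.0%, 0.353% and 0.118% in 850 neutrophil-gated cells. In the comparison cells a *Ctla4* UMI was found in 42.1% to 53.2% of cells of a library and an *Il2ra* UMI in 27.6% to 40.4%. An *Icos* UMI was found in 86.0% to 90.3% of them, so *Icos* marked both classes of T cells. A *Cd4* UMI was found in 8 of 17, 46 of 78, 24 of 46 and 31 of 53 members, since the rule did not ask for it. *Cd4* CPM was 156, 188, 184 and 210 in the members against 358, 388, 366 and 337 in the comparison cells, which were chosen for it. Intervals, floors and shares of cells here cover counting error only.

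Foxp3+ T cells made up between 37.0% and 46.1% of the members plus the comparison cells, taken as the Cd4 lineage. A *Cd4* UMI was asked of the comparison cells but not of the members, which raises this share. A regulatory T cell with a *Cd4* UMI but no captured *Foxp3* UMI counts as a comparison cell, which lowers it. With 2 *Foxp3* UMIs asked of the members the share was 27.5%, 37.8%, 36.7% and 38.0%. With a *Cd4* UMI asked of both classes the share was 21.6%, 32.2%, 29.6% and 33.3%, and Control 1 stayed the lowest. Without that condition the share was 37.0% (exact Clopper-Pearson 95% interval 23.2 to 52.5), 44.6% (37.1 to 52.3), 44.7% (34.9 to 54.8) and 46.1% (36.8 to 55.6). The 4 intervals overlap. The hucMSC-Exosomes group had 45.4% ± 1.01 (SD, n = 2) and the control group 40.8% ± 5.38 (SD, n = 2), a difference of 4.61 percentage points (two-sided exact permutation p = 0.333, the smallest that 2 against 2 libraries can give). Among all Cd3+ cells the share was 3.06%, 10.1%, 6.42% and 6.61%. Both control libraries lay outside the range of the hucMSC-Exosomes libraries, 1 below and 1 above it, so the group means were 6.51% ± 0.136 and 6.58% ± 4.97 (SD, n = 2 each; exact permutation p = 1). Of all kept cells, which are not all skin cells, the members were 1.79%, 3.76%, 3.25% and 2.65%, with group means of 2.95% ± 0.424 and 2.77% ± 1.40 (SD, n = 2 each; exact permutation p = 1). The sign of the last difference turned to -0.0471 percentage points when every kept cell with 20 or more UMIs of neutrophil, macrophage and dendritic markers was left out. This took the kept cells from 952, 2074, 1416 and 2001 to 647, 1022, 919 and 965, and the shares became 2.63%, 7.53%, 4.68% and 5.39%.

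**Figure D1:**
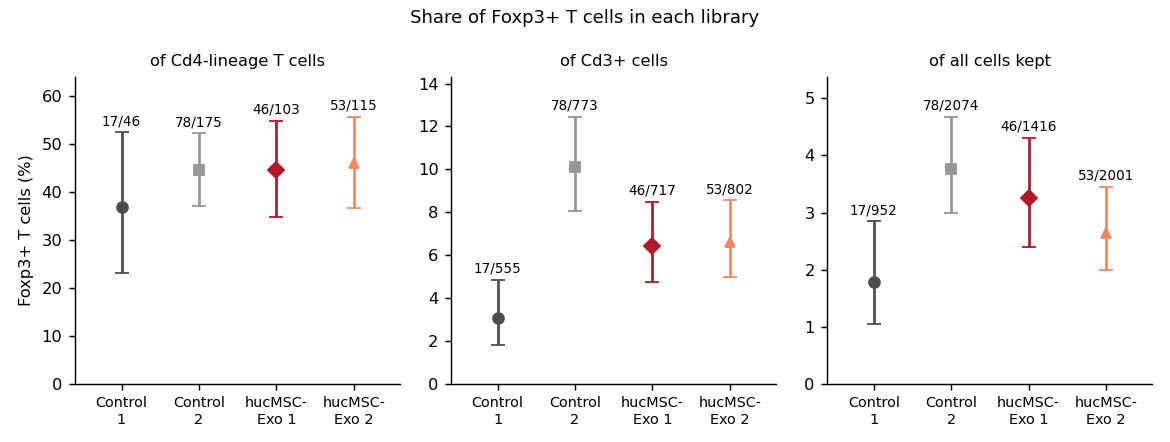
Share of Foxp3+ T cells (%, points; bars are exact 95% binomial intervals) among Cd4-lineage T cells, Cd3+ cells and all kept cells of each library, with cell numbers printed above. The Cd4-lineage share runs from 37.0% to 46.1% with overlapping intervals, while the Cd3+ share runs from 3.06% in Control 1 to 10.1% in Control 2.

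Against the Foxp3-negative Cd4+ T cells of the same library, the members were marked by a regulatory receptor set, *Gzmb* and *Klrg1*, and by low or absent helper cytokines. UMIs were summed per library and class and tested with edgeR's quasi-likelihood test with the library as a block, leaving out the genes of the rule. Of 3868 genes tested, 418 passed (10.8%), with 189 higher (4.89%) and 229 lower (5.92%) in the members. Of those, 175 of the higher and 185 of the lower genes had the same sign in all 4 libraries, against 28.9% of all genes tested. The test favours genes that move alike in every library, so this is no further support for the calls. The median log2 fold change of all genes was -0.01. DESeq2 called 201 genes (5.2%), all of them among the 418, and had 490 at an unadjusted p under 0.05 (12.7%); edgeR had 842 (21.8%). Without Control 2, 80 genes passed, and without hucMSC-Exo 2, 185.

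**Figure D2:**
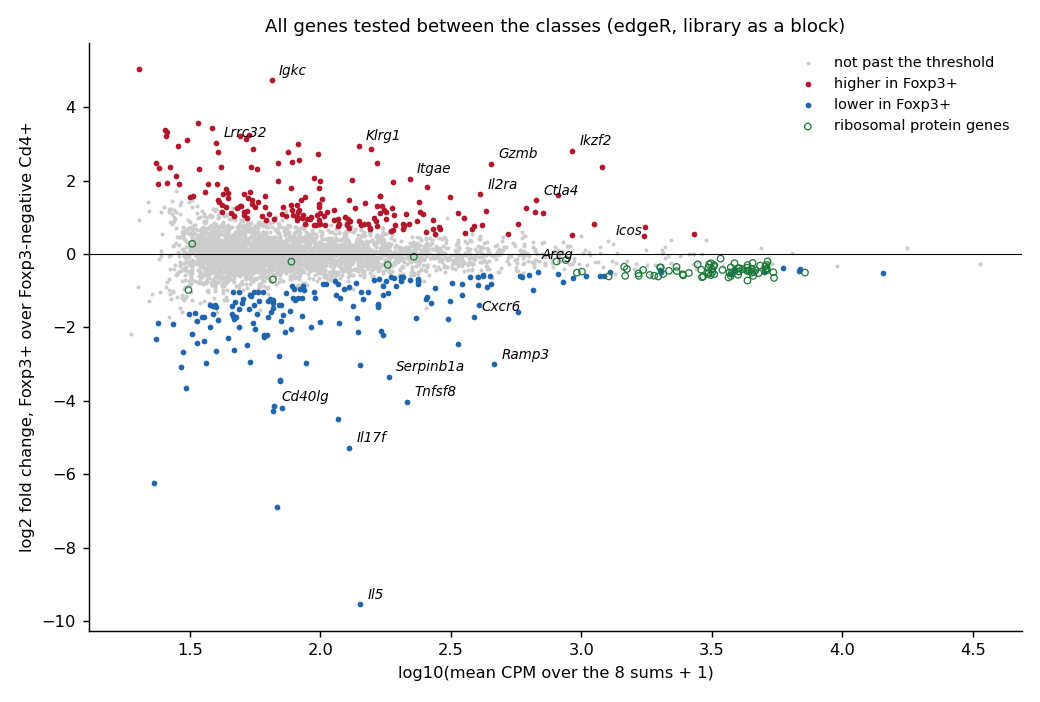
Each point is 1 of 3868 genes, by log10 of the mean CPM over the 8 sums plus 1 and by the log2 fold change of Foxp3+ over Foxp3-negative Cd4+ T cells; red and blue mark genes past the edgeR threshold and open green circles mark ribosomal protein genes. Ikzf2 (2.82) and Gzmb (2.46) stand high among abundant genes, the helper cytokine genes lie at the bottom (the fitted value of Il5, with 0 UMIs in the members, depends on the prior count of the fit), and the ribosomal protein genes sit just below 0.

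Genes of regulatory T cell identity were higher as a group. Of 20 measured members of that list, 16 could be tested, 10 passed as higher and 0 as lower, with a median log2 fold change of 1.54 against -0.01 over all genes. *Ikzf2*, which encodes the transcription factor Helios and lies on chromosome 1 at 69531214 to 69687245, had a CPM of 1582, 1542, 1694 and 1625 in the members. In the Foxp3-negative cells it was 396, 125, 315 and 111. Every member sum was above every comparison sum, and the member sums spanned a narrow range (log2 fold change 2.82, SE 0.25, edgeR adjusted p = 2.98e-06). An *Ikzf2* UMI was present in 178 of 194 members and 63 of 245 comparison cells, and in 6 of 850 neutrophil-gated cells. *Gm28112*, a predicted gene inside *Ikzf2* on the same strand, also passed (3.44, edgeR adjusted p = 0.000956), and reads of the pair may be shared.

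*Ctla4* measured 676, 1054, 1055 and 1270 CPM in the members and 302, 330, 281 and 400 CPM in the comparison cells. *Il2ra* measured 447, 793, 674 and 631 CPM against 75.4, 241, 183 and 232 CPM. Neither gene overlapped between the classes (log2 fold change 1.47, SE 0.16, and 1.64, SE 0.18; edgeR adjusted p = 2.7e-05 for both), and the *Ctla4* and *Il2ra* level was lowest in Control 1 among the members. *Icos* was high in both classes, 1592, 1623, 1331 and 1415 CPM against 836, 1082, 1348 and 893 CPM, and did not pass (0.37, SE 0.15, edgeR adjusted p = 0.137). The hucMSC-Exo 1 library was the only one in which *Icos* was not higher in the members. *Tnfrsf18*, the receptor GITR, measured 406, 1051, 648 and 870 CPM against 358, 479, 434 and 601 CPM and did not pass either (0.50, SE 0.17, edgeR adjusted p = 0.0760). It passed when cells rich in myeloid marker UMIs were left out (0.52, edgeR adjusted p = 0.0463).

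Another TNF receptor was higher in the members and passed. *Tnfrsf9*, the costimulatory receptor 4-1BB, measured 656, 1628, 1248 and 1493 CPM against 233, 356, 455 and 431 CPM in the comparison cells. Every member value was above every comparison value (1.61, SE 0.16, edgeR adjusted p = 1.3e-05). *Tnfrsf4*, the receptor OX40, measured 968, 1895, 1497 and 1596 CPM against 534, 716, 787 and 978 CPM (0.83, edgeR adjusted p = 0.00212). The upstream stretch of *Tnfrsf9* is printed as an example of a higher gene with a STAT-type motif, the kind of site read downstream of interleukin 2. It is chr4:150927749-150927998 of GRCm38.p6 (RefSeq, plus strand, 5′ to 3′), the 250 bases before 1 of 2 annotated starts, with the TTCNNNGAA match in capitals, 136 bases before the start.
Tnfrsf9: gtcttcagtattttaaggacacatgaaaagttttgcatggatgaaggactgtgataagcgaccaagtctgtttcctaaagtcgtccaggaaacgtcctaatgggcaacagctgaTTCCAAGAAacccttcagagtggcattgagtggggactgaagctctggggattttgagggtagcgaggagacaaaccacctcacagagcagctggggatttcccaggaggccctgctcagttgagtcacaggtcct
RefSeq promoter windows matched 143 of the 189 higher genes by symbol, with 193 windows, and 16 of these held the palindrome TTCNNNGAA (8.29%). The share was 5.83% of the windows of lower genes, 6.49% over tested genes and 8.30% of all 32851 windows, so the higher genes held it as often as promoters in general. The forkhead motif GTAAACA, searched on both strands and not overlapping TTCNNNGAA by letters, was in 8 of the 193 windows (4.15%), 3.14% of those of lower genes, 2.80% over tested genes and 3.65% of all windows.

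Surface and transcription genes of the same list followed. *Itgae*, the integrin CD103 that holds T cells in epithelium, measured 375, 380, 337 and 330 CPM in the members against 119, 62.7, 102 and 48.2 CPM (2.06, SE 0.22, edgeR adjusted p = 1.76e-05). *Lrrc32*, the cell-surface anchor of latent TGF-beta, was scarcer, 41.6, 72.9, 52.5 and 103 CPM against 25.1, 2.02, 8.51 and 5.67 CPM (3.03, SE 0.54, edgeR adjusted p = 0.0019). *Cd81*, a tetraspanin, measured 104, 166, 193 and 215 CPM against 18.9, 24.3, 51.0 and 5.67 CPM (2.73, SE 0.36, edgeR adjusted p = 0.000133). Values of these genes did not overlap between the classes. *Ikzf4*, encoding the Foxp3 partner Eos, was at 41.6, 141, 158 and 169 CPM against 44.0, 6.07, 38.3 and 17.0 CPM (2.52, edgeR adjusted p = 0.00135), with Control 1 alone showing no excess. *Izumo1r*, which encodes folate receptor 4, also passed (1.78, SE 0.48, edgeR adjusted p = 0.0266) but not by DESeq2. Once Control 2 was left out, *Lrrc32* (2.46), *Ikzf4* (1.96), *Izumo1r* (0.98) and *Tnfrsf4* (0.67) each failed the test.

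**Figure D3:**
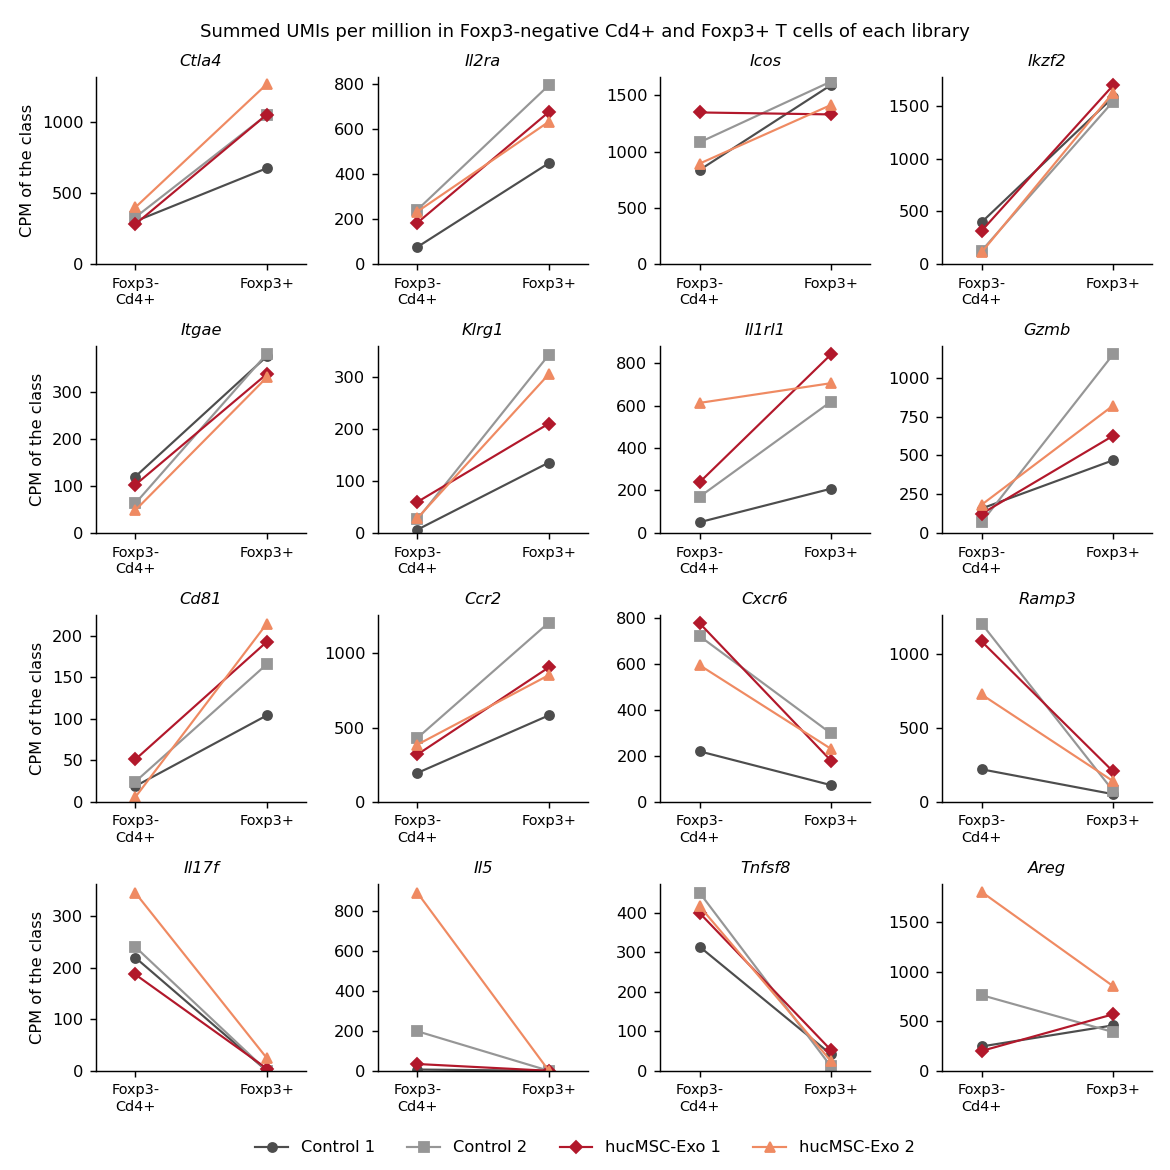
CPM of 16 genes in the Foxp3-negative Cd4+ (left) and Foxp3+ T cells (right) of each library, joined by a line per library. Ctla4, Il2ra, Ikzf2, Itgae, Klrg1, Gzmb and Ccr2 rise and Cxcr6, Ramp3, Il17f, Il5 and Tnfsf8 fall in all 4 libraries, while Icos is level in hucMSC-Exo 1 and Areg rises in some libraries and falls in others.

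Members with few *Foxp3* UMIs also held these genes. Members with 1, 2 and 3 or more *Foxp3* UMIs had an *Ikzf2* UMI in 92.5%, 88.9% and 92.7% of cells and a *Ctla4* UMI in 90.6%, 88.9% and 97.9%. *Il2ra* was found in 62.3%, 71.1% and 89.6% of them. The cells of these 3 bands held a median of 4892, 3675 and 5277.5 UMIs, so the band with more *Foxp3* was also sequenced deeper than the middle one. With 1 *Foxp3* UMI, *Ikzf2* already measured 1295, 1321, 1338 and 1618 CPM, above every Foxp3-negative sum. *Gzmb* was found in 62.3%, 60.0% and 61.5% of the bands, *Itgae* in 62.3%, 71.1% and 72.9% and *Klrg1* in 49.1%, 46.7% and 56.3%. These shares are a description, since the bands are cut from the gene that chose the cells.

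**Figure D4:**
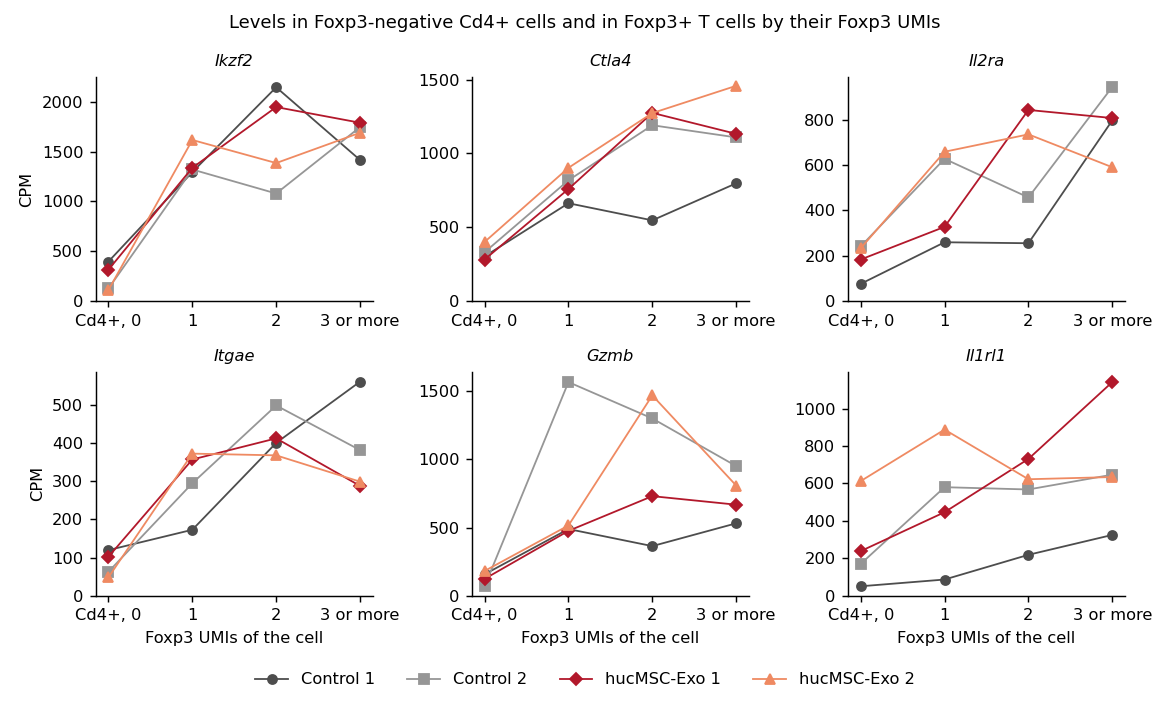
CPM of 6 genes in Foxp3-negative Cd4+ T cells (Cd4+, 0) and in members with 1, 2 and 3 or more Foxp3 UMIs, 1 line per library. Ikzf2 is at 1295 to 1618 CPM in members with a single Foxp3 UMI, against at most 396 CPM in the Foxp3-negative cells.

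Mediators of suppression were split. Of 16 measured, 12 could be tested and 2 passed, both higher, with a median log2 fold change of 0.13. *Gzmb*, the protease granzyme B of cytotoxic granules, measured 468, 1151, 626 and 821 CPM in the members and 157, 68.8, 123 and 181 CPM in the comparison cells (2.46, SE 0.29, edgeR adjusted p = 4.92e-05). It was present in 119 of 194 members and 0.235% of neutrophil-gated cells. *Penk*, the enkephalin precursor, measured 62.4, 247, 328 and 561 CPM against 107, 28.3, 46.8 and 133 CPM (1.96, edgeR adjusted p = 0.00226), with Control 1 going the other way. It came from 37 members and did not pass without Control 2 (1.61), by DESeq2 or with all deposited cells. *Areg*, the growth factor amphiregulin through which regulatory T cells are known to act on epithelium, measured 458, 391, 569 and 854 CPM against 245, 763, 200 and 1803 CPM. The classes overlapped and the sign differed between libraries (-0.28, SE 0.34, edgeR adjusted p = 0.727). *Il10*, the inhibitory cytokine, was found in 28 of 194 members (14.4%) and 19 of 245 comparison cells (7.76%), with 125, 55.2, 74.4 and 90.7 CPM against 6.29, 28.3, 12.8 and 142 CPM (0.67, SE 0.46, edgeR adjusted p = 0.449).

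Genes of the tissue programme, which marks regulatory T cells settled in skin, fat and gut, went both ways. Of 23 measured, 19 were tested, 6 were higher and 2 lower, with a median log2 fold change of 0.38. *Klrg1*, an inhibitory lectin receptor of terminally differentiated effector cells, measured 135, 342, 210 and 305 CPM against 6.29, 26.3, 59.6 and 28.4 CPM (2.95, SE 0.30, edgeR adjusted p = 1.3e-05). It did not overlap between the classes. *Il1rl1*, the interleukin 33 receptor ST2, measured 208, 618, 841 and 705 CPM against 50.3, 170, 238 and 612 CPM (1.18, SE 0.26, edgeR adjusted p = 0.00877). It was higher in the members of each library, yet the comparison cells of hucMSC-Exo 2 came close to its members, and the call was lost without Control 2 (0.97) or without the library block. *Maf*, a transcription factor of interleukin 10 producing cells, measured 895, 1076, 819 and 965 CPM against 371, 370, 259 and 556 CPM (1.14, SE 0.17, edgeR adjusted p = 0.000515). *Prdm1*, which encodes Blimp-1, measured 187, 135, 118 and 66.0 CPM against 44.0, 22.3, 29.8 and 62.4 CPM (1.48, SE 0.35, edgeR adjusted p = 0.0135), with the values of hucMSC-Exo 2 nearly equal. *Dgat2*, an enzyme of triglyceride synthesis, measured 52.0, 81.7, 145 and 82.5 CPM against 12.6, 0, 21.3 and 11.3 CPM (3.13, SE 0.46, edgeR adjusted p = 0.000385). *S100a6* also passed (0.55, edgeR adjusted p = 0.0116). The call of *Prdm1* was lost without Control 2 (1.07), and that of *S100a6* without Control 1, Control 2 or hucMSC-Exo 2 (0.49 to 0.53). *Prdm1* also did not pass by DESeq2 (DESeq2 adjusted p = 0.0543).

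The stretch before 1 of the 2 annotated starts of *Il1rl1* is shown because it holds the forkhead motif named above. It is chr1:40439379-40439628 of GRCm38.p6 (RefSeq, plus strand, 5′ to 3′), 250 bases, with GTAAACA in capitals, 117 bases before the start.
Il1rl1: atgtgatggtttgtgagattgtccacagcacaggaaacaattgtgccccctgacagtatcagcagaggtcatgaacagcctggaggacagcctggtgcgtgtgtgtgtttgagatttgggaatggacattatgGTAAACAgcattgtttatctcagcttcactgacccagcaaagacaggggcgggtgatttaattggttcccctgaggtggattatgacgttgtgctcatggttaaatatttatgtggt
The match describes these letters and says nothing of binding in these cells.

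The lower genes of the tissue programme were receptors. *Cxcr6*, the receptor for Cxcl16, measured 72.8, 298, 180 and 231 CPM in the members and 220, 722, 779 and 595 CPM in the comparison cells (-1.71, SE 0.18, edgeR adjusted p = 1.57e-05), lower in the members of every library. *Il18r1*, an interleukin 18 receptor chain, measured 146, 141, 118 and 107 CPM against 170, 291, 319 and 85.0 CPM (-0.87, edgeR adjusted p = 0.0317), with the opposite sign in hucMSC-Exo 2, and was not called without Control 2 (-0.67) or hucMSC-Exo 1 (-0.64). It also failed by DESeq2. *Gata3*, the transcription factor shared by type 2 helper cells and tissue regulatory T cells, measured 208, 185, 193 and 194 CPM against 157, 336, 183 and 468 CPM (-0.72, edgeR adjusted p = 0.0712). It was nearly flat across the members and varied in the comparison cells. *Batf*, a factor needed for tissue regulatory T cells, measured 187, 263, 201 and 227 CPM against 132, 82.9, 119 and 173 CPM (0.72, edgeR adjusted p = 0.0564). *Rgs1*, a brake on chemokine receptor signals, measured 1727, 574, 687 and 726 CPM against 1000, 943, 1395 and 1276 CPM (-0.63, edgeR adjusted p = 0.0798). *Gata3*, *Batf* and *Rgs1* passed when the cells rich in myeloid marker UMIs were left out, at -0.78, 0.76 and -0.62 (edgeR adjusted p = 0.0303, 0.0283 and 0.0405).

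Read cell by cell, 168 of 194 members (86.6%) had a UMI of *Il1rl1*, *Klrg1*, *Areg* or *Ccr8*, against 96 of 245 comparison cells (39.2%) and 2.47% of neutrophil-gated cells. The member share was 76.5%, 85.9%, 87.0% and 90.6% by library and 17.2%, 40.2%, 42.1% and 45.2% in the comparison cells. *Ccr8*, a skin homing receptor, gave little of this, with a UMI in 7 members. *Il1rl1* alone was found in 47.1%, 56.4%, 65.2% and 71.7% of members, and in 17.6%, 45.5%, 47.8% and 53.8% once each cell was thinned to 1500 UMIs. *Gata3* was found in 90 members (46.4%). *Tbx21*, which encodes the type 1 factor T-bet, was found in 3 members and 17 comparison cells.

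Genes of naive and central T cells also split. Of 13 measured, 9 were tested, 3 were higher and 2 lower, with a median log2 fold change of 0.09. *Cd27*, a costimulatory receptor, measured 198, 325, 206 and 272 CPM against 163, 56.6, 59.6 and 70.9 CPM (1.58, SE 0.28, edgeR adjusted p = 0.00183). *Klf2*, which drives exit receptors, measured 114, 110, 149 and 318 CPM against 75.4, 64.7, 63.8 and 90.7 CPM (1.02, SE 0.25, edgeR adjusted p = 0.0143), and failed the test in 6 of 13 other settings, DESeq2 among them. *Tcf7*, the factor TCF-1 of naive and memory cells, went down, with 83.2, 8.84, 8.76 and 16.5 CPM against 31.4, 164, 149 and 87.9 CPM (-2.77, edgeR adjusted p = 0.00428). *Satb1* measured 20.8, 161, 193 and 297 CPM against 145, 587, 370 and 264 CPM (-1.18, edgeR adjusted p = 0.0164). Control 1 had the opposite sign for *Tcf7*, and hucMSC-Exo 2 for *Satb1*. Without Control 2 the calls of *Cd27* (1.23), *Klf2* (1.21), *Tcf7* (-1.97) and *Satb1* (-0.76) were lost, and without hucMSC-Exo 2 that of *Klf2* (0.74). *Ccr7*, the lymph node chemokine receptor, measured 41.6, 53.0, 289 and 144 CPM against 50.3, 80.9, 115 and 142 CPM and did not pass (0.09, edgeR adjusted p = 0.922).

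Helper cytokines had the largest median change of the lists. Of 15 measured, 8 could be tested, 7 were lower and 0 higher in the members, with a median log2 fold change of -4.17. *Il5*, the eosinophil growth factor, gave 0 UMIs in all 194 members and 422 in the comparison cells, which is at least 116-fold lower when 3 counts over the 4 libraries are taken as the floor (edgeR adjusted p = 1.71e-06; DESeq2 adjusted p = 0.0869). *Il5* in the comparison cells was 6.29, 198, 34.0 and 893 CPM, so most of it came from Control 2 and hucMSC-Exo 2. *Il13*, the partner type 2 cytokine, gave 1 UMI in the members and 201 in the comparison cells (edgeR adjusted p = 2.67e-06 and DESeq2 adjusted p = 0.334). The comparison cells held 7, 73, 0 and 121 *Il13* UMIs by library, so most came from Control 2 and hucMSC-Exo 2. In hucMSC-Exo 1 both classes held 0. The 2 cytokines failed by DESeq2 alone among the settings that could test them.

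Interleukin 17 genes were low in the members in every library. *Il17f* measured 0, 0, 4.38 and 24.7 CPM against 220, 241, 187 and 346 CPM in the comparison cells (-5.28, SE 0.43, edgeR adjusted p = 2.32e-06). *Il17a* measured 0, 6.63, 26.3 and 8.25 CPM against 157, 60.7, 97.8 and 196 CPM (-3.46, SE 0.43, edgeR adjusted p = 7.14e-05). Helper ligands of the TNF family were lower too. *Tnfsf8*, the ligand of CD30, measured 41.6, 11.04, 52.5 and 24.7 CPM against 314, 451, 400 and 417 CPM (-4.02, SE 0.32, edgeR adjusted p = 1.71e-06). *Cd40lg*, by which helper cells license B cells and dendritic cells, measured 20.8, 4.42, 17.5 and 0 CPM against 62.9, 166, 145 and 108 CPM (-4.14, SE 0.47, edgeR adjusted p = 2.91e-05). *Tnfsf11*, which encodes RANKL, was 0, 0, 17.5 and 16.5 CPM against 107, 190, 145 and 85.1 CPM (-4.20, SE 0.53, edgeR adjusted p = 8.12e-05). *Ifng*, the type 1 cytokine, was the tested member of this list that did not pass, with 0, 4.42, 61.3 and 0 CPM against 182, 26.3, 8.51 and 8.51 CPM (-1.33, edgeR adjusted p = 0.407).

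Chemokine receptor and homing genes gave calls on the higher side only. Of 18 measured, 12 were tested, 4 were higher and 0 lower in the members, against 4.89% higher and 5.92% lower over all genes. Of the 12, 6 lay above 0 and the median was 0.10. *Ccr2*, the receptor for monocyte chemoattractant proteins, measured 583, 1208, 906 and 854 CPM in the members and 195, 431, 319 and 386 CPM in the comparison cells (1.26, SE 0.16, edgeR adjusted p = 7.06e-05). *Ccr6*, the receptor for Ccl20, measured 52.0, 61.8, 109 and 53.6 CPM against 18.9, 16.2, 55.3 and 17.0 CPM (1.32, edgeR adjusted p = 0.0132). Both receptors were higher in the members of every library. *Itgb7*, the integrin chain that pairs with CD103, measured 250, 265, 267 and 198 CPM against 88.0, 107, 128 and 122 CPM (0.96, edgeR adjusted p = 0.00543). The members thus held more transcript of both chains of the CD103 integrin. Without Control 2 the calls of *Ccr6* (1.14) and *Itgb7* (0.88) were lost, and without hucMSC-Exo 2 that of *Ccr6* (1.29). *Ccr6* was also not called by DESeq2.

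Signalling lists moved less. In TNF receptor and NF-kB signalling 1 of 11 tested genes was higher (median 0.09), *Tank*, an adaptor of TRAF proteins, with 198, 186, 153 and 239 CPM against 88.0, 56.6, 97.8 and 62.4 CPM (1.25, edgeR adjusted p = 0.00302). Among interleukin 2 and STAT5 genes it was 1 of 10 (median -0.06), *Pim1*, a survival kinase, with 947, 1131, 1191 and 1250 CPM against 553, 785, 868 and 632 CPM (0.52, edgeR adjusted p = 0.0267). *Pim1* was called in 8 of 14 other settings. The T cell receptor response list had 1 higher and 3 lower of 12 tested (median -0.35). *Tox*, a transcription factor of chronically stimulated T cells, measured 125, 183, 114 and 198 CPM against 37.7, 42.5, 59.6 and 25.5 CPM (1.81, edgeR adjusted p = 0.000868). The nuclear receptor gene *Nr4a2* measured 83.2, 8.84, 21.9 and 24.7 CPM against 264, 60.7, 85.1 and 62.4 CPM (-2.05, edgeR adjusted p = 0.00051). *Zap70*, the proximal kinase of the T cell receptor, was lower in each library, 72.8, 70.7, 56.9 and 61.9 CPM against 132, 125, 72.3 and 156 CPM (-1.04, edgeR adjusted p = 0.0151), and *Cd226* was at -1.72 (edgeR adjusted p = 0.0109). *Zap70* and *Cd226* were not called by DESeq2. Without Control 2 the calls of *Tank* (1.13), *Pim1* (0.58), *Zap70* (-1.06) and *Cd226* (-1.81) were lost, and without hucMSC-Exo 2 those of *Pim1* (0.43), *Zap70* (-0.85) and *Cd226* (-1.64).

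The remaining lists gave 1 or 2 calls each, where 4.89% of all genes tested were higher and 5.92% lower. Among helper lineage genes 1 of 6 tested passed, lower (median -0.47). This was *Nkg7*, a granule protein, with 114, 72.9, 4.38 and 74.2 CPM against 409, 160, 111 and 153 CPM (-1.74, edgeR adjusted p = 0.00142). Among cell cycle genes 2 of 9 tested were lower and 0 higher (median -0.60). *Tuba1b*, a tubulin, measured 52.0, 86.1, 43.8 and 165 CPM against 277, 127, 196 and 207 CPM (-1.23, edgeR adjusted p = 0.0115), and *Stmn1* was at -0.65 (edgeR adjusted p = 0.0353) but called in only 3 of 13 other settings. Among immediate early and heat shock genes 2 of 14 were lower (median -0.22), *Atf3* (-1.21, edgeR adjusted p = 0.0259) and *Fosb* (-1.24, edgeR adjusted p = 0.0206), and neither passed by DESeq2. Interferon-stimulated genes gave 2 higher of 4 tested (median 0.48). *Ifi27l2a*, an interferon-induced gene, measured 1779, 3028, 1011 and 3201 CPM against 1672, 856, 570 and 1936 CPM (0.73, edgeR adjusted p = 0.0338). It was higher in the members of every library but did not pass by DESeq2. Without Control 2 the calls of *Tuba1b* (-1.46), *Atf3* (-1.09), *Fosb* (-0.95) and *Ifi27l2a* (0.39) were lost, and without hucMSC-Exo 2 those of *Atf3* (-0.86), *Fosb* (-1.29) and *Ifi27l2a* (0.80).

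Outside the lists, genes were named by the size of the change. *Itgb8*, the integrin chain that activates latent TGF-beta, measured 114, 92.8, 70.1 and 94.9 CPM in the members against 18.9, 0, 21.3 and 5.67 CPM (3.24, edgeR adjusted p = 0.000621). It did not overlap between the classes. *Tnfrsf13b*, the receptor TACI, measured 20.8, 124, 114 and 86.6 CPM against 6.29, 2.02, 17.0 and 14.2 CPM (3.21, edgeR adjusted p = 0.000195). *Il6st*, the shared gp130 chain of interleukin 6 family receptors, measured 31.2, 132, 118 and 243 CPM against 6.29, 16.2, 17.0 and 28.4 CPM (2.79, edgeR adjusted p = 1.3e-05). *Tff1*, a trefoil peptide gene, measured 187, 369, 280 and 243 CPM against 75.4, 22.3, 55.3 and 14.2 CPM (2.85, edgeR adjusted p = 5.59e-05). Each of these was higher in the members of every library. *Adgrl2*, *Bmyc*, *Phlpp1* and *Matk* followed at 3.12, 2.99, 2.86 and 2.78, of which *Adgrl2* failed without Control 2 (2.90).

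Immunoglobulin transcripts were part of the same set. *Igkc*, the kappa light chain constant gene, measured 62.4, 190, 131 and 107 CPM in the members against 6.29, 0, 12.8 and 2.83 CPM (4.74, SE 0.51, edgeR adjusted p = 1.9e-05). It came from 3, 18, 5 and 8 cells. *Ighm*, the IgM heavy chain gene, measured 114, 210, 123 and 173 CPM against 69.2, 24.3, 51.0 and 22.7 CPM (1.99, edgeR adjusted p = 0.00153), from 6, 40, 15 and 19 cells, a call lost without Control 2 (1.56). The defining B cell gene *Cd79a* had 0 UMIs in the members, and *Cd79b* had a UMI in 12 of them and in 0.0% of the comparison cells of every library. *Cd79b* thus lay on the same side as *Igkc* and *Ighm*. No B cell marker had enough UMIs to be tested, and the part of B cell RNA in *Igkc* and *Ighm* was not tested beyond these values.

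On the lower side, *Ramp3*, which encodes an accessory protein of calcitonin-type receptors, measured 52.0, 75.1, 206 and 140 CPM against 220, 1206, 1085 and 726 CPM (-3.01, edgeR adjusted p = 2.98e-06). *Calca*, the gene of calcitonin gene-related peptide, measured 0, 6.63, 0 and 20.6 CPM against 12.6, 130, 17.0 and 332 CPM (-4.28, edgeR adjusted p = 2.98e-06). The neuropeptide gene and a receptor accessory gene were thus both lower in the members in every library. For *Calca* this rests on Control 2 and hucMSC-Exo 2. In Control 1 and hucMSC-Exo 1 it gave only 0 against 2 and 0 against 4 UMIs, too few to show a difference. *Serpinb1a*, a protease inhibitor gene, measured 20.8, 37.5, 52.5 and 37.1 CPM against 56.6, 459, 562 and 232 CPM (-3.35, edgeR adjusted p = 1.71e-06). *Fasl*, the death ligand, measured 0, 4.42, 4.38 and 4.12 CPM against 113, 56.6, 17.0 and 36.9 CPM (-3.64, edgeR adjusted p = 0.00132). *Themis*, a T cell receptor signalling protein, measured 0, 11.04, 4.38 and 12.4 CPM against 75.4, 62.7, 59.6 and 59.5 CPM (-2.96, edgeR adjusted p = 0.000619). *Actn2*, *Nmrk1*, *Serpinb9*, *Abcb1b* and *Pdlim1* followed at -3.08, -2.98, -2.95, -2.64 and -2.62, of which *Abcb1b* failed without Control 2 (-2.43).

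Ribosomal protein genes, grouped after the values had been seen, were lower as a body. Of 81 tested, 50 were lower and 0 higher, with a median log2 fold change of -0.46. They took 24.3%, 23.4%, 27.2% and 23.0% of the UMIs of the members and 29.7%, 30.4%, 28.9% and 29.6% of those of the comparison cells. The gap was smallest in hucMSC-Exo 1. Without Control 2 none passed, and without hucMSC-Exo 1, 72 did, while the median stayed between -0.56 and -0.34 in every setting. Mitochondrial UMIs were 2.64%, 2.99%, 2.58% and 2.61% in the members and 3.54%, 3.09%, 2.92% and 3.03% in the comparison cells. The part of these quality measures in other calls was not tested.

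Markers of other cells were looked for in the same sums. Both tested neutrophil markers passed as higher, *S100a8* with 0, 236, 48.2 and 338 CPM against 6.29, 56.6, 29.8 and 31.2 CPM (2.09, edgeR adjusted p = 0.00183) and *S100a9* with 0, 563, 21.9 and 557 CPM against 6.29, 99.1, 46.8 and 19.8 CPM (2.47, edgeR adjusted p = 0.00497). The 4 neutrophil markers summed to 0, 804, 70.1 and 916 CPM in the members, against 51117 to 114176 CPM in neutrophil-gated cells. Most of this came from single cells. Of the members, 5 held 20 or more UMIs of neutrophil, macrophage and dendritic markers (0, 1, 3 and 1 cells), as did 4 comparison cells, and all 9 had a high doublet score. The member of Control 2 had 239 UMIs of *S100a9* with 23 of *Ikzf2* and 1 of *Foxp3*, and the rest of the members held at most 8, 11, 9 and 10 such marker UMIs. Without Control 2 or hucMSC-Exo 2 neither gene passed (2.28 and 1.47 for *S100a8*, 2.54 and 1.48 for *S100a9*). *S100a9* also did not pass by DESeq2 (DESeq2 adjusted p = 0.906). With these 9 cells left out, *S100a8* was at -0.03 and *S100a9* at -0.23, 487 genes passed, and 408 of the 418 calls were among them.

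Other marker lists gave little. Macrophage markers summed to 208, 81.7, 722 and 120 CPM in the members and 220, 146, 251 and 213 CPM in the comparison cells, with 0 of 2 tested genes called. Keratinocyte markers summed to 697, 409, 530 and 528 CPM against 717, 451, 859 and 485 CPM, with 0 of 4 called. Of 4 fibroblast markers, *Col3a1* was lower, also a call lost without Control 2 (-0.72) or hucMSC-Exo 1 (-0.94), with 31.2, 90.6, 39.4 and 78.4 CPM against 56.6, 196, 80.8 and 87.9 CPM (-0.96, edgeR adjusted p = 0.0266), a call lost without the 9 cells (-0.67, edgeR adjusted p = 0.0997). DESeq2 did not call *Col3a1*. Of 2 tested natural killer markers, *Klrk1* was lower, 0, 19.9, 13.1 and 4.12 CPM against 170, 123, 170 and 51.0 CPM (-3.42, edgeR adjusted p = 2.36e-05). The 1 tested gene of the gamma delta list, *Fcer1g*, did not pass (-0.19, edgeR adjusted p = 0.875). That list also summed to 1963 to 3017 CPM in neutrophil-gated cells, so this was no check on gamma delta T cell RNA. Among dendritic markers 0 of 3 passed. *Cd74*, the invariant chain of MHC class II, measured 167, 197, 1152 and 223 CPM against 81.7, 259, 319 and 39.7 CPM (0.97, edgeR adjusted p = 0.0924), and passed without the 9 cells (2.22, edgeR adjusted p = 5.9e-06). A *Cd74* UMI was found in 41.2% to 52.2% of the members of a library, with a UMI in 20% of neutrophil-gated cells.

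The effect of hucMSC-Exosomes within Foxp3+ T cells was then tested between the 2 libraries of each group. No gene passed, 0 of 3331 (0.0%), with 100 genes at an unadjusted p under 0.05 (3.0%). DESeq2 called 0 as well, with 14 at an unadjusted p under 0.05 (0.42%). *Ctla4* was 1163 ± 152 CPM in the hucMSC-Exosomes group and 865 ± 267 CPM in the control group (SD, n = 2 each), a log2 fold change of 0.42 (SE 0.27). *Icos* was 1373 ± 59.2 against 1608 ± 22.2 CPM (-0.21) and *Il2ra* 653 ± 30.5 against 620 ± 244 CPM (0.05). Both hucMSC-Exo values of *Icos* lay below both control values, and the groups failed to overlap in this way for 31.0% of all genes tested. The regulatory identity list had 0 of 16 called and a median of 0.07, the tissue programme 0 of 19 and -0.14, and the suppressive mediators 0 of 12 and 0.03. A count of 0 here does not show that the groups were alike. Leaving out Control 1, Control 2, hucMSC-Exo 1 or hucMSC-Exo 2 gave 19, 77, 6 and 33 calls, in fits of 1 library against 2 that take the lone library to vary like the other group.

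The list genes with the smallest p are given as values. *Ccr7* measured 41.6 and 53.0 CPM in the control libraries and 289 and 144 CPM in the hucMSC-Exo libraries (2.12, edgeR adjusted p = 0.331). Without the cell of each library that held the most *Ccr7*, it was 34.0, 40.6, 198 and 91.0 CPM. The groups did not overlap in either reading. With all members this held for 31.0% of all genes tested, and *Ccr7* was named for its small p, so the gap adds nothing to the test. *Penk* measured 62.4, 247, 328 and 561 CPM (1.31), and 0, 201, 133 and 396 CPM without the top cell of each library, when the groups overlapped. *Areg* measured 458, 391, 569 and 854 CPM (0.78), *Klf2* 114, 110, 149 and 318 CPM (1.08) and *Cd69*, an early activation receptor that retains cells in tissue, 874, 241, 215 and 140 CPM (-1.51). Of the *Cd69* UMIs of Control 1, 42 of 84 came from 1 cell.

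The myeloid genes *Il1b* and *Cd14*, at the top of this comparison, came almost wholly from 1 cell a library. *Il1b*, the inflammatory cytokine of myeloid cells, measured 0, 6.63, 215 and 53.6 CPM in the members (4.54, edgeR adjusted p = 0.286). Its 3, 49 and 13 UMIs lay in 1 cell each, and without it the level was 0 in every library. *Cd14*, the endotoxin coreceptor, measured 0, 11.04, 175 and 82.5 CPM (3.80, edgeR adjusted p = 0.226), of which 39 of 40 and 20 of 20 UMIs in the hucMSC-Exo libraries lay in 1 cell. These cells are among the 5 members with 20 or more myeloid marker UMIs. *Cd74*, by contrast, had a UMI in 7, 39, 24 and 26 members. It measured 167, 197, 1152 and 223 CPM (1.92) and 124, 177, 533 and 198 CPM without its top cells, of which that of hucMSC-Exo 1 is among the 5. A further 64 *Cd74* UMIs of hucMSC-Exo 1 lay in another of the 5. Without cells of 20 or more myeloid marker UMIs the log2 fold change of *Cd74* was 0.39.

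**Figure D5:**
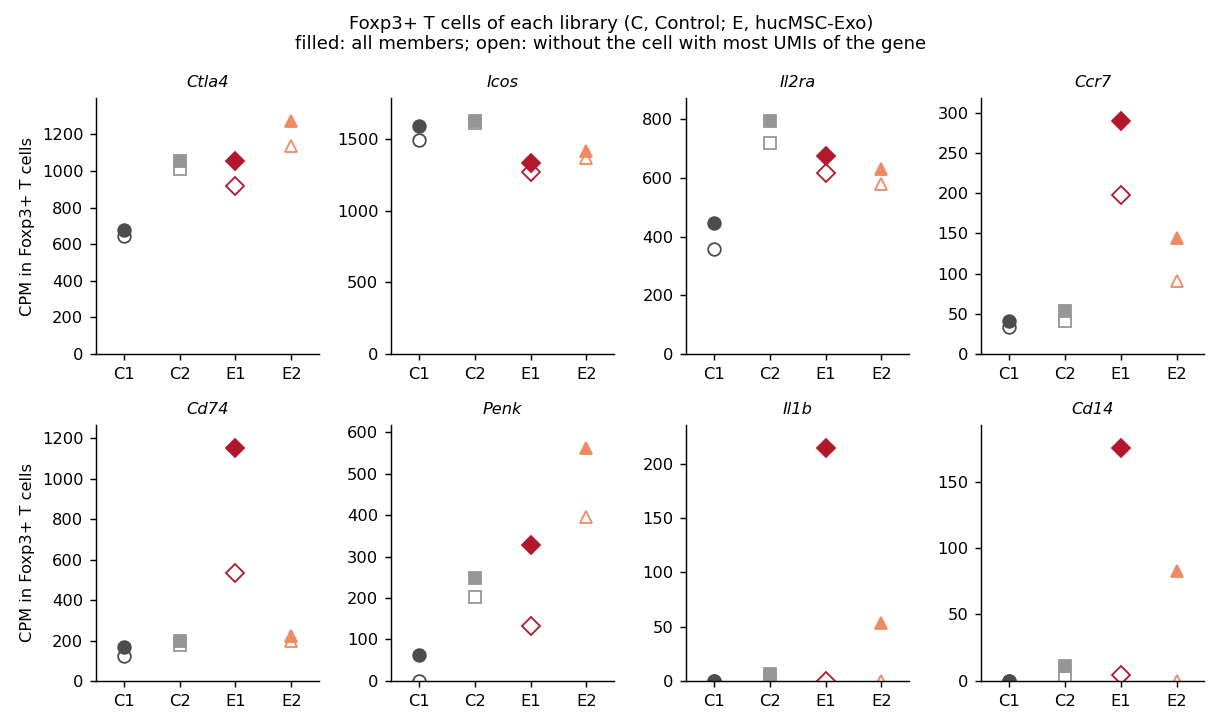
CPM of 8 genes in the Foxp3+ T cells of each library (C, Control; E, hucMSC-Exo), with all members (filled) and without the cell that holds the most UMIs of the gene (open). Ccr7, named for its small p, stays apart between the groups, as 31.0% of genes tested do with all members. Il1b drops to 0 in every library.

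Whether exosomes acted differently on the members and on the Foxp3-negative Cd4+ T cells was tested as an interaction over the 8 sums. Of 3868 genes, 3 passed (0.0776%), *Gzma* and *H2-Eb1* with a positive difference (0.0517% of genes tested) and *Hist1h1b* with a negative one (0.0259%), with 119 at an unadjusted p under 0.05 (3.08%). DESeq2 called 1 (0.0259%), *Hist1h1b*, with 24 at an unadjusted p under 0.05 (0.62%). *Hist1h1b*, a histone gene of dividing cells, measured 333, 261, 109 and 70.1 CPM in the members and 226, 99.1, 515 and 369 CPM in the comparison cells (-3.27, edgeR adjusted p = 0.00434). Both hucMSC-Exo values were below both control values in the members and above both in the comparison cells. Within the members the groups failed to overlap for 31.0% of genes tested between the groups. *Hist1h1b* was named for passing the interaction test on these sums, so the order adds nothing to that test. Without the top cell of each sum *Hist1h1b* was 216, 154, 40.7 and 30.0 CPM against 90.3, 39.2, 155 and 280 CPM, the same order. *Gzma*, the granule protease granzyme A, measured 0, 2.21, 4.38 and 194 CPM against 119, 24.3, 0 and 0 CPM (12.3, SE 1.56, edgeR adjusted p = 0.00434; DESeq2 adjusted p = 0.999933). With 0 UMIs in both hucMSC-Exo sums of the comparison cells, its fitted value depends on the prior count of the fit. Of its UMIs, 44 of the 47 in hucMSC-Exo 2 lay in 1 member and all 19 of Control 1 in 1 comparison cell. *H2-Eb1*, an MHC class II chain, measured 10.4, 13.3, 534 and 16.5 CPM against 12.6, 129, 149 and 5.67 CPM (4.87, edgeR adjusted p = 0.00514 and DESeq2 adjusted p = 0.785). Of the 122 *H2-Eb1* UMIs in the members of hucMSC-Exo 1, 82 lay in 1 member rich in myeloid marker UMIs and 38 in another. Without Control 2 no gene passed, and without Control 1, hucMSC-Exo 1 or hucMSC-Exo 2 it was 16, 8 and 22, with 1 library left in a group and taken to vary like the other group.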

How the data were processed

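UMI counts per gene and cell were deposited by the authors as 10x matrices, 1 per library, made with Cell Ranger 6.1.2 on mm10 per the submitters' processing notes; the values are not normalized. The matrices hold only part of the cells the study counts, mostly leukocytes, and which of the authors' later steps (doublet removal, separation of immune cells) picked them is not given in the sources used here. Of 1098, 2422, 1539 and 2119 deposited cells (Control 1, Control 2, hucMSC-Exo 1, hucMSC-Exo 2), 952, 2074, 1416 and 2001 passed the limits of 200 to 3000 genes and 10% mitochondrial UMIs. Members summed to 96097, 452734, 228388 and 242435 UMIs. Between libraries, 0 to 2 barcodes were shared per pair, and 0 among members.

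The rule for the members and all gene lists were chosen with earlier results of these data known. Counts were summed per library and class and tested with edgeR 4.0.16 (R 4.3.3; TMM, filterByExpr, quasi-likelihood, Benjamini-Hochberg 0.05 over all genes tested); DESeq2 1.42.0 was an alternative. Genes of the rule were left out of the tests. Shares were compared by an exact permutation test (scipy 1.17.1). The tests were checked on simulated counts. Doublets were not removed in the main analysis; leaving out the 10% highest Scrublet scores (scanpy 1.11.5) was an alternative. A high score was held by 0, 5, 4 and 2 members. Other alternatives asked for 2 *Foxp3* UMIs or a *Cd4* UMI, dropped the filter, the block or the exclusions, thinned cells to 1500 UMIs, or left out a library; leaving out cells with 20 or more myeloid marker UMIs, all deposited cells in the gene tests, and asking *Cd4* of the members in the shares were chosen after seeing the data.

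Named were the markers, up to 6 called genes per list with the largest change and the same sign in every library, up to 2 abundant genes that did not pass, and up to 10 genes per direction outside the lists. *Il10*, *Gata3*, *Batf*, *Ighm*, *S100a8*, *S100a9*, *Penk*, *Tcf7*, *Satb1*, *Tnfrsf9*, *Tnfrsf4*, *Ikzf4*, *Il13*, *Il18r1*, *S100a6*, *Fosb*, *Cd14* and *Il1b* were chosen after their values were seen. Some genes counted in the lists are not reported here by name. The numbers 1 and 2 in the titles did not pair libraries (the correlation of deviations from the group means was 0.01 over 3331 genes). Gene positions are from GENCODE on GRCm38, and promoter windows from RefSeq.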

Additional observations from a re-analysis of the deposited data

Results flagged for a closer look

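The effect of hucMSC-Exosomes differed between Foxp3+ and Foxp3-negative Cd4+ T cells by the interaction test for *Gzma* (12.3 on the log2 scale), *H2-Eb1* (4.87) and *Hist1h1b* (-3.27). By DESeq2 *Gzma* (adjusted p = 0.999933) and *H2-Eb1* (adjusted p = 0.785) did not pass, and the size for *Gzma* depends on the prior count of the fit, since both hucMSC-Exo sums of the comparison cells held 0 UMIs. Without cells of 20 or more myeloid marker UMIs, 2 genes passed, *Gzma* and *Hist1h1b*. Without the top cell of each sum, *Gzma* was at 0, 0, 0 and 12.6 CPM in the members and 0, 6.11, 0 and 0 CPM in the comparison cells, and *H2-Eb1* at 0, 11.1, 184 and 12.5 CPM against 0, 18.5, 4.45 and 2.86 CPM. The 184 CPM of hucMSC-Exo 1 still held 38 UMIs of a second member rich in myeloid marker UMIs.

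A *Foxp3* signal also lay in cells outside the comparisons. The limits on genes and mitochondrial UMIs left out 24 cells that met the rule for Foxp3+ T cells (1, 17, 4 and 2 by library), 22 of them for more than 3000 genes. A further 49 Cd3+ cells with a *Foxp3* UMI were left out for a UMI of *Trdc*, *Cd8a*, *Cd8b1* or *C1qa*.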

How the results depend on the processing

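Direction and side of the threshold held for 988 of the values of named genes between the classes, with 104 weaker, 40 stronger and 16 turned; between the groups it was 96, 0, 21 and 5, and for the interaction 20, 12, 0 and 0. The 418 class calls became 201 by DESeq2 and 122 of 901 genes after thinning, and 80 to 413 without a library. For this test the rule was applied anew to the thinned cells, which left 11, 48, 27 and 34 members and 15, 49, 30 and 30 comparison cells. A member left without a *Foxp3* UMI could then count as a comparison cell. Fewer genes were also tested after thinning, and otherwise the cause was not tested. The 0 group calls became 19 without the filter on low counts, 6 to 77 without a library, and 5 with the replicate number as a block, a pairing the data did not bear out. Without the library block the class test gave 304. The 3 interaction calls became 1 by DESeq2, with 2 *Foxp3* UMIs asked, and without the exclusions, 15 without the filter and with all deposited cells, and 0 to 22 without a library. Leaving out a library in the group and interaction tests leaves 1 in a group, taken to vary like the other group. Differences in share (percentage points) ran without a library from 0.802 to 8.42 of the Cd4 lineage, -3.58 to 3.45 of Cd3+ cells (main -0.0648; turned to 3.45 without Control 2 and 0.0317 without hucMSC-Exo 1) and -0.812 to 1.16 of kept cells (main 0.175; -0.812 without Control 1, -0.125 without hucMSC-Exo 1, -0.0471 without all myeloid-rich kept cells). Turned between the classes: *Areg* 0.12 without high doublet scores, 0.075 thinned, and -0.79 to 0.19 without a library (0.12 without Control 2, 0.19 without hucMSC-Exo 2); *Ccr7* -0.14 without high doublet scores, -0.45 to 0.42 without a library (-0.45 without hucMSC-Exo 1), -0.35 with *Cd4* asked, -0.0028 with all cells and -0.10 without myeloid-rich cells; *Cd74* -0.39 without exclusions and -0.041 with *Cd4* asked; *Lyz2* -1.08 without exclusions; *S100a8* -0.14 and -0.031, and *S100a9* -0.40 and -0.23, without high doublet scores and without myeloid-rich cells. Turned between the groups: *Areg* -0.14 thinned, *Il1b* -0.57 with all cells, and *Il2ra* -0.22 thinned and -0.26 to 0.60 without a library (-0.26 without Control 1, -0.00092 without hucMSC-Exo 1). With *Cd4* asked, Control 1 dropped out of the gene tests (8 cells). Depth limits scarce genes, since 3 UMIs in the members of Control 1 are 31.2 CPM.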
